A study of Homo sapiens with 27 samples.

Results

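NF-kB transcription factors, their inhibitors, and the cytokines, chemokines and surface proteins that NF-kB is known to induce were followed by RNA-seq in 3 human melanoma cell lines after knockdown of SIRT5. The 33 members were taken by gene symbol from the 26004 genes of the deposited expression table, and all 33 symbols were found. They comprise 10 interleukins and IL-6 family cytokines, 3 further growth factors and cytokines, 8 chemokines, 5 NF-kB subunits, 3 inhibitors and modulators, and 4 other induced genes.

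The deacylase SIRT5, a sirtuin known mainly from mitochondria, takes succinyl and related acidic groups off lysines. A2058, A375 and SKMEL2, bought from ATCC, were transduced with pLKO.1 lentivirus in medium with 8 µg/ml polybrene, put under 1 µg/ml puromycin, and lysed for total RNA 96 h after transduction. In each line the arms KD2 and KD1 carried separate short hairpins against SIRT5, and the arm NT carried a hairpin against Gaussia luciferase, a gene that human cells lack. Each arm has 3 libraries, 27 in all, and every arm, NT included, had received virus, polybrene and puromycin. The labels give each hairpin a clone number, and no label or header ties those numbers to KD1 or KD2. It is therefore assumed from the names alone that KD1 is the same hairpin in each line, and KD2 likewise. Counts over lines, averages over lines and tests between lines for a single arm rest on that assumption. The 3 libraries of an arm came from 3 wells, so the p-values measure how much wells vary, and that variation may be technical.

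NF-kB is a family of dimeric transcription factors built from RELA, RELB, REL and the processed products of NFKB1 and NFKB2. In resting cells inhibitors such as NFKBIA hold the dimers in the cytoplasm. Receptors for interleukin-1 and TNF lead to degradation of the inhibitor, the dimers bind kappaB elements in promoters, and among the genes they turn on are the inhibitors themselves. Melanoma cells are known to secrete several of these products, CXCL8 and CXCL1 among them.

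Promoters of 7 members are printed because the hairpin arms separated these genes widely or because they carry the kappaB element in closely similar surroundings. Each is 300 bases, 250 before and 50 after the RefSeq gene start, 5′ to 3′ on the gene's strand, build GRCh38.p14, and capitals mark matches to the kappaB consensus on either strand, overlapping matches merged. CXCL1, CXCL2 and CXCL3 are neighbouring genes of closely similar coding sequence. TNFRSF9 and NFKBIA carry the element without that kinship. IL1A and IL11 had the largest differences between the hairpin arms in A2058, 1 in each direction. The windows are CXCL1 at chr4:73869143-73869442 on the plus strand, CXCL2 at chr4:74099146-74099445 on the minus strand, CXCL3 at chr4:74038640-74038939 on the minus strand, TNFRSF9 at chr1:7940790-7941089 on the minus strand, NFKBIA at chr14:35404700-35404999 on the minus strand, IL1A at chr2:112784444-112784743 on the minus strand and IL11 at chr19:55370414-55370713 on the minus strand.
CXCL1: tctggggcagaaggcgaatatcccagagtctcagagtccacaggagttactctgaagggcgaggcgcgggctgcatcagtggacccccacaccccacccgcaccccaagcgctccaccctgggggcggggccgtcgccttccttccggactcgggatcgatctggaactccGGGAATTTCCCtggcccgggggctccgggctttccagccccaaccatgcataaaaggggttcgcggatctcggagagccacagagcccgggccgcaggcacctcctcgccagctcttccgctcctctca
CXCL2: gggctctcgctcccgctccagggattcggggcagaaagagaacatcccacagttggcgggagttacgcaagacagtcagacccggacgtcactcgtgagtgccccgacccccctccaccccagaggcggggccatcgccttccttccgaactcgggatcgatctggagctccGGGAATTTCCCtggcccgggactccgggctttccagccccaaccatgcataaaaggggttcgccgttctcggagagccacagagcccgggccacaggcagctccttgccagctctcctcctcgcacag
CXCL3: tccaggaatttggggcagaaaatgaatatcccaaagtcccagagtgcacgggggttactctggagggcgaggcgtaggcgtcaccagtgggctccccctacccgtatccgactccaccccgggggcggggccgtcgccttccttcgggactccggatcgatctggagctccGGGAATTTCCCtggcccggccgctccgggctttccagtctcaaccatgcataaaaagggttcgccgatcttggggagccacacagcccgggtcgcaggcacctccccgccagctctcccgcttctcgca
TNFRSF9: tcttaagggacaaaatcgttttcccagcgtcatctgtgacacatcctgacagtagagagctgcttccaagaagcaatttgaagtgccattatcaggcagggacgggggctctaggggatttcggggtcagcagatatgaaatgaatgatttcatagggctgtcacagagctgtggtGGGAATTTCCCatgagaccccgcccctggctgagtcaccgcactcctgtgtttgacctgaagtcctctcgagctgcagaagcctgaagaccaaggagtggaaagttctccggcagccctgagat
NFKBIA: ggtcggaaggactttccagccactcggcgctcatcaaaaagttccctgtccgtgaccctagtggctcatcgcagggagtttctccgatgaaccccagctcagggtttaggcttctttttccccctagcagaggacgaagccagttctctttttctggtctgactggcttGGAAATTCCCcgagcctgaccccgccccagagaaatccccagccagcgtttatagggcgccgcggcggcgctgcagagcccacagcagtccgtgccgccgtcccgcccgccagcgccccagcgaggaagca
IL1A: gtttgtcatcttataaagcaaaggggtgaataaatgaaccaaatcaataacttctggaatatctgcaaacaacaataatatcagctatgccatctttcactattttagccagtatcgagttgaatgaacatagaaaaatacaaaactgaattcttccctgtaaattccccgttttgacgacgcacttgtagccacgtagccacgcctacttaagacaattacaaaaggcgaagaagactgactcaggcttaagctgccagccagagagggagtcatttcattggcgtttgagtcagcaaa
IL11: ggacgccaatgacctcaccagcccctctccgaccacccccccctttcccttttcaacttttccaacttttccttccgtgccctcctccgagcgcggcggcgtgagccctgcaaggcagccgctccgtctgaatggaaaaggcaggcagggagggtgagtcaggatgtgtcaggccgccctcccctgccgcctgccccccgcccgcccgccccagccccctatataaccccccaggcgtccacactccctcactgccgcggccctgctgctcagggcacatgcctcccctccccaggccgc

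The run GGGAATTTCCC stood in the promoters of CXCL1, CXCL2, CXCL3 and TNFRSF9, where it matches the consensus on both strands. In that of NFKBIA stood GGAAATTCCC, which matches on the strand opposite the gene's. Counted from the gene start, the first match began at -79 in CXCL1, -78 in CXCL2, -79 in CXCL3, -74 in TNFRSF9 and -81 in NFKBIA. No match was in the windows of IL1A and IL11, which says only that these letters are not there. The RefSeq table held promoters for 25 of the 33 members. Of these, 13 (52.0%) had a match, against 2958 of all 27305 promoters in the table (10.8%). The other matches were in IL6, IL32, CXCL10, CCL20, NFKB1, REL, NFKBIZ and TNFAIP3. A match describes the sequence and is neither a mapped site nor a cause.

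Expression is given as FPKM, fragments scaled by library size and gene length, as the authors deposited it. Differences were estimated with limma on log2(FPKM + 0.5) and carry their SE, n = 3 libraries per arm, and a gene is called at an adjusted p under 0.05 after Benjamini-Hochberg adjustment over all genes tested. On this scale a weakly expressed gene shows less than its full change. A gene was tested in a line if at least 3 of its libraries reached an FPKM of 1, which left 27 members in A2058, 27 in A375 and 21 in SKMEL2. Not tested were IL15, TNF and REL in any line, IL18, CSF2 and CCL2 in A2058, IL6, IL7 and IL18 in A375, and IL6, IL7, CXCL2, CXCL3, CXCL10, CCL2, TNFAIP2, TNFRSF9 and PTGS2 in SKMEL2. Some members passed because of a single arm, so that a difference was built into the filter. These were CXCL10 and TNFRSF9 in A2058, IL1B, IL32 and PTGS2 in A375, and IL1A and IL1B in SKMEL2. CCL20, CSF2 and CXCL10 in A375 and CSF2 and IL32 in SKMEL2 reached that FPKM in another arm too. They passed only with their KD1 libraries, however.

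Library depth, in recovered reads, spanned 29.3 to 54.5 M for A2058. It spanned 7.10 to 23.9 M for A375 and 20.2 to 40.5 M for SKMEL2. SIRT5 itself was at 20.04%, 12.4% and 19.98% of the NT mean with KD2 in A2058, A375 and SKMEL2, and at 8.44%, 3.89% and 7.01% with KD1. Melanoma markers were present, 8 of 8 at a mean FPKM of at least 1 in A2058 and SKMEL2 and 4 or 5 of 8 in A375, where MLANA, TYR and DCT were below it. Their summed FPKM was 679.5 to 723 with KD2, 771 to 835 with KD1 and 877 to 908 with NT in A2058, 293 to 391, 424 to 558 and 252 to 284 in A375, and 1051 to 1113, 809 to 1063 and 1784 to 1991 in SKMEL2, in the same order of arms. So these sums were below NT with both hairpins in A2058 and SKMEL2 and above it in A375. The 6 fibroblast markers summed to 6.35 to 6.96 with KD2, 16.4 to 18.3 with KD1 and 10.4 to 11.7 with NT in A2058, 0.956 to 1.51, 1.60 to 2.44 and 1.34 to 1.55 in A375, and 1.31 to 1.63, 1.97 to 2.13 and 1.76 to 1.84 in SKMEL2. They were therefore lower with KD2 than with KD1 in each line, with KD2 and NT overlapping in A375. Averaged over the 3 lines, 19 of 30 members were lower with KD2 than with KD1 too (34.6% of all genes). LUM alone of them reached a mean FPKM of 1, in A2058 and in the KD1 arm of A375, and COL1A2 was listed at 0 in the KD2 and NT arms of A375. The 4 endothelial markers summed to between 1.25 and 3.83 over all libraries. Of 10 leukocyte markers 7 were in the table, and their summed FPKM was 5.12 to 5.74 with KD2, 5.43 to 6.69 with KD1 and 2.08 to 2.90 with NT in A2058. The same sums were 13.0 to 15.3, 20.7 to 23.8 and 11.2 to 14.0 in A375, and 17.3 to 20.0, 12.3 to 12.9 and 7.67 to 8.12 in SKMEL2, in the same order of arms. LYZ, and in SKMEL2 also CD14, were the leukocyte markers at a mean FPKM of at least 1. CD3E was listed at 0 throughout the KD2 and NT arms of A2058 and the KD1 arm of A375, as were NKG7 in the KD1 arm of A2058 and the endothelial CDH5 in the KD2 and KD1 arms of A2058 and the KD1 arm of A375. The part of these markers in the results was not tested, and in bulk RNA fewer cells of a type and less RNA per cell cannot be told apart.

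The hairpin arms differed from each other in most members of each line. More of these were lower than higher with KD2, most widely in A375 and hardly in A2058, 12 against 11. In A375, 21 of 27 tested members were lower with KD2 than with KD1 (21.2% of all genes) and 3 were higher (16.9%). Together 88.9% of the members were called there, against 38.1% of all genes, and the median difference was -1.24 against -0.07 over all genes. In SKMEL2, 12 of 21 were lower (35.2% of all genes) and 8 higher (33.3%), so that 95.2% were called against 68.5%, with a median of -0.40 against 0.00. In A2058, 12 of 27 were lower (40.7% of all genes) and 11 higher (31.6%), so that 85.2% were called against 72.3%, and the median, -0.06, was that of all genes. Lower in all 3 lines were 7 of the 19 members tested in each line, IL1A, IL1B, CXCL1, CXCL8, CCL20, RELA and NFKBIA, against 12.7% of the genes tested in each line. Counted among the lower members are some that passed the filter through KD1 alone, so that their direction was built in. These were TNFRSF9 in A2058, IL1B and IL32 in A375, and IL1A and IL1B in SKMEL2. CCL20, CSF2 and CXCL10 in A375 and IL32 in SKMEL2, also among the lower, passed only with their KD1 libraries. For them too the filter favoured that direction. Higher in all 3 lines were CXCL16, IL11 and IL24, 3 of the 19, against 9.09%. CSF1, ICAM1, NFKB2 and TNFAIP3 were called in opposite directions in different lines.

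**Figure D1:**
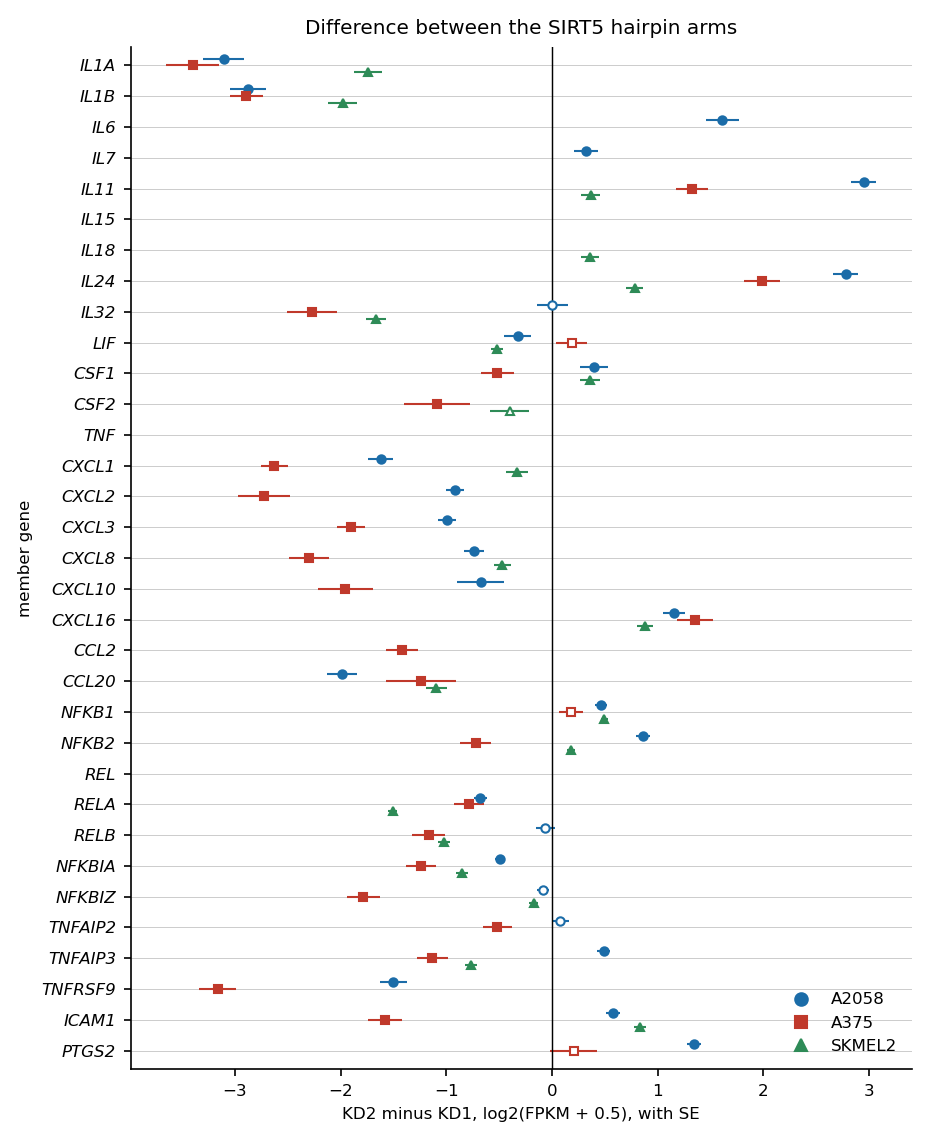
KD2 minus KD1 for each member, in log2(FPKM + 0.5), with the SE as bars. Circles are A2058, squares A375 and triangles SKMEL2, filled where called and open where not, and members without a symbol were not tested. IL1A and IL1B lie far left in each line, between -3.40 and -1.74, and IL11 and IL24 lie right of 0 in each line.

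Set against the shared NT libraries, some members were called on opposite sides of the control with KD2 and KD1, and others on the same side. In A2058, 5 of 27 members fell with KD2 and rose with KD1 (9.76% of all genes), CCL20, CXCL1, CXCL3, CXCL8 and IL1A. In A375 these were 7 of 27 (2.15% of all genes), CXCL1, CXCL3, CXCL8, IL1A, IL1B, TNFAIP3 and TNFRSF9. In SKMEL2 they were 4 of 21 (6.43% of all genes), IL32, NFKBIA, RELA and TNFAIP3. The reverse, higher with KD2 and lower with KD1, held for IL11, IL24 and PTGS2 in A2058 (5.77% of all genes) and for ICAM1 and NFKB1 in SKMEL2 (5.96%), and for no member in A375 (1.20%). Both arms were higher than NT in ICAM1, IL1B, NFKBIZ and RELB of A2058 (19.3% of all genes), in CCL2 and ICAM1 of A375 (12.9%) and in CSF2, IL24 and NFKB2 of SKMEL2 (17.5%). Both were lower in CSF1, CXCL2, CXCL10, IL32 and TNFAIP2 of A2058 (17.7% of all genes), in PTGS2 of A375 (9.38%) and in CXCL1, CXCL16, IL11, IL18 and LIF of SKMEL2 (15.9%). Of the members named here, IL1B in A375 had passed the filter through KD1 alone. CSF2 and IL32 in SKMEL2 had passed it only with their KD1 libraries. CXCL10 in A2058 and PTGS2 in A375 had passed it through NT alone.

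**Figure D2:**
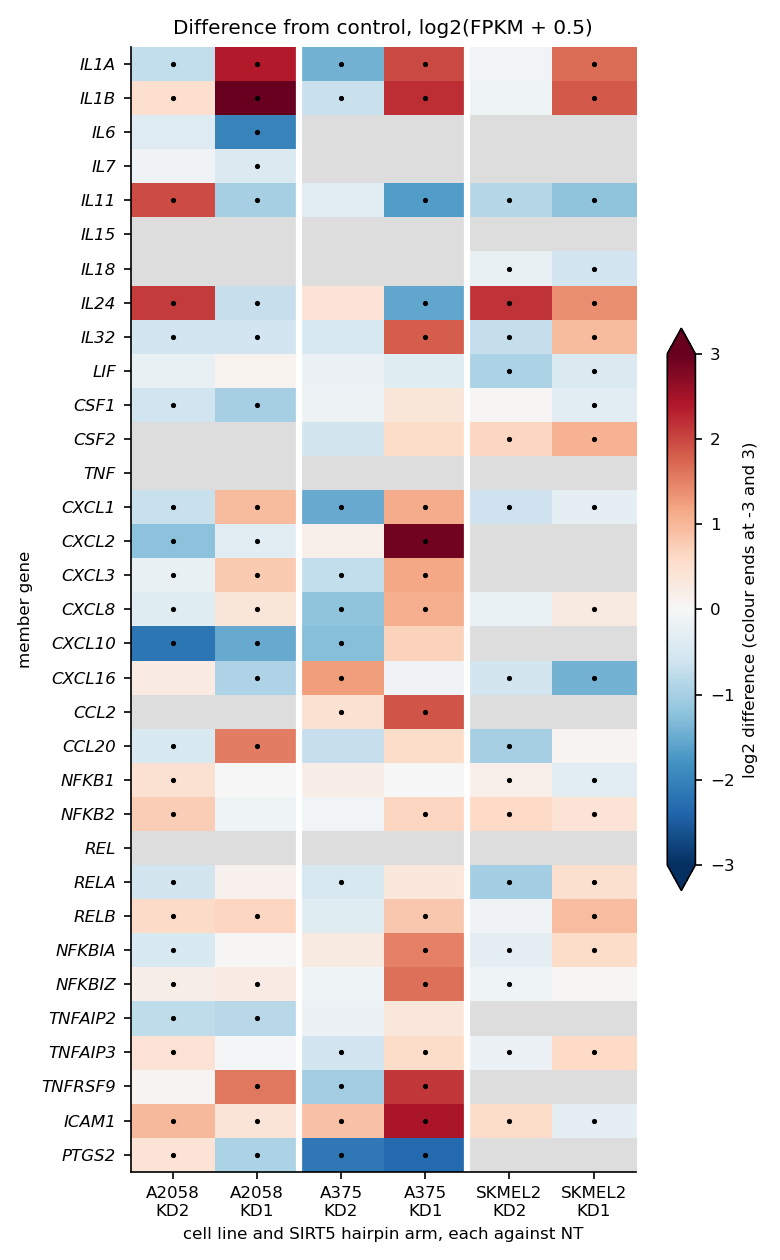
Difference from the NT arm in log2(FPKM + 0.5) for the 33 members (rows) with KD2 and KD1 in each line (columns). Red is higher and blue lower than NT, a black dot marks a call, grey was not tested, and the colours end at -3 and 3. In the rows IL1A, IL1B, CXCL1 and CXCL8 of A2058 and A375 each KD1 cell lies nearer the red end than the KD2 cell beside it.

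Counted by arm, KD2 against NT gave 10 higher and 12 lower (37.2% of all genes) of 27 members in A2058. There 81.5% of the members were called against 70.2% of all genes, and 47.1% of all the genes called were higher. KD2 against NT gave 3 higher (22.6% of all genes) and 10 lower (20.9%) of 27 in A375, and 5 higher (32.2% of all genes) and 11 lower (31.1%) of 21 in SKMEL2. KD1 against NT gave 10 higher (38.6% of all genes) and 11 lower (31.9%) in A2058. It gave 15 higher (26.6% of all genes) and 3 lower (19.8%) in A375, and 11 higher (34.8% of all genes) and 8 lower (32.8%) in SKMEL2. The median member effect of KD1 in A375 was 0.68, against 0.05 over all genes. Members that passed the filter through a single arm are part of these counts.

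The mean of both arms against NT gave 13 higher (34.6% of all genes) and 11 lower (34.7%) in A2058. It gave 9 higher (26.2% of all genes) and 3 lower (21.7%) in A375, and 8 higher (32.9% of all genes) and 8 lower (32.4%) in SKMEL2. The share of members called with that mean in A375, 44.4%, was near the 47.9% of all genes. IL1B rose in all 3 lines with that mean (10.7% of all genes) and no member fell in all 3 (10.5%). In A375 and SKMEL2 IL1B had passed the filter through KD1 alone, so that a rise with KD1 was built in. Its KD2 mean there was below the NT mean, 0.102 against 0.463 FPKM in A375 and 0.045 against 0.0978 in SKMEL2.

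When both knockdown arms were taken as 1 group of 6 libraries, a choice made after seeing the data that counts the difference between hairpins as spread, 6 of 27 members were called in A2058, 2 of 27 in A375 and 8 of 21 in SKMEL2. They were ICAM1 and RELB, higher, and CSF1, CXCL10, IL32 and TNFAIP2, lower, in A2058 (31.7% of all genes). In A375 they were ICAM1, higher, and PTGS2, lower (25.0% of all genes). In SKMEL2 they were CSF2, IL24 and NFKB2, higher, and CXCL1, CXCL16, IL11, IL18 and LIF, lower (29.6% of all genes). In the authors' deposited tables of knockdown against control, 4 members were higher (13.0% of all genes with an adjusted p there) and 4 lower (10.1%) of 32 in A2058, at an adjusted p under 0.05. In the authors' deposited table for A375 they were 4 higher (13.7%) and 2 lower (11.0%) of 30, and in that for SKMEL2 4 higher (13.2%) and 6 lower (11.4%) of 28.

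Among tested members, the KD2 minus KD1 difference on the log2(FPKM + 0.5) scale was largest in size for IL1A in A2058 and A375 and for IL1B in SKMEL2. In SKMEL2 IL1A and IL1B had passed the filter through KD1 alone, so a high KD1 arm was built in there. IL1A (chr2:112773925-112784493, minus strand, GRCh38) encodes interleukin-1 alpha, which acts as a precursor and as a released cytokine. Its values in A2058 were 0.647, 0.441 and 1.34 FPKM with KD2, 11.3, 10.2 and 9.55 with KD1 and 1.58, 1.61 and 1.55 in the NT libraries. In A375 they were 3.8, 3.28 and 6.5 FPKM with KD2, 42.6, 67.1 and 45.6 with KD1 and 13.98, 13.6 and 10.03 in the NT libraries. In SKMEL2 they were 0.178, 0.25 and 0.187 FPKM with KD2, 1.64, 2.33 and 1.67 with KD1 and 0.241, 0.194 and 0.286 in the NT libraries. KD1 was the highest arm in each line with no overlap, while KD2 lay below NT in A2058 and A375 and overlapped it in SKMEL2. KD2 was 12.8-fold below KD1 in A2058, 11.4-fold in A375 and 9.17-fold in SKMEL2 in mean FPKM, with limma differences of -3.11 ± 0.19 (adjusted p = 1.6e-07), -3.40 ± 0.25 (adjusted p = 9.4e-06) and -1.74 ± 0.13 (adjusted p = 2.4e-06). Against NT, IL1A changed by -0.73 ± 0.19 (adjusted p = 0.0064) for KD2 minus NT and 2.38 ± 0.19 (adjusted p = 1.4e-06) for KD1 minus NT in A2058, and by -1.41 ± 0.25 (adjusted p = 0.0022) for KD2 minus NT and 1.99 ± 0.25 (adjusted p = 1.9e-04) for KD1 minus NT in A375. In SKMEL2 it rose by 1.67 ± 0.13 (adjusted p = 3.6e-06) with KD1, and KD2 minus NT was -0.07 ± 0.13 (adjusted p = 0.67).

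IL1B (chr2:112829751-112836816, minus strand, GRCh38), the neighbouring gene, encodes interleukin-1 beta, which is cleaved by caspase-1 before release. It stood in A2058 at 1.56, 1.47 and 2.83 FPKM with KD2, 19.4, 16.5 and 15.3 with KD1 and 1.25, 1.11 and 1.18 in the NT libraries. A375 gave 0.0566, 0.14 and 0.108 FPKM with KD2, 4.05, 4.09 and 3.75 with KD1 and 0.561, 0.466 and 0.363 in the NT libraries. SKMEL2 gave 0.046, 0.0335 and 0.0557 FPKM with KD2, 1.41, 2.1 and 1.51 with KD1 and 0.0897, 0.0901 and 0.113 in the NT libraries. The KD1 libraries were again above both other arms in every line, and with KD2 IL1B was at or below 0.14 FPKM in A375 and SKMEL2. KD2 minus KD1 was -2.88 ± 0.17 (adjusted p = 1.2e-07) in A2058, -2.89 ± 0.15 (adjusted p = 1.5e-06) in A375 and -1.98 ± 0.14 (adjusted p = 1.4e-06) in SKMEL2. The direction was built in for A375 and SKMEL2, where IL1B had passed the filter through KD1 alone. With the mean of both arms IL1B rose by 1.94 ± 0.15, 0.77 ± 0.13 and 0.86 ± 0.12, and that mean joined a KD1 arm far above NT to a KD2 arm that differed in sign between lines. With KD2 IL1B rose in A2058, by 0.51 ± 0.17 (adjusted p = 0.023), and fell in A375, a change of -0.68 ± 0.15 (adjusted p = 0.0068). The KD2 rise in A2058 was 0.26 without KD2 replicate 3, the library at 2.83 FPKM, and its call was lost without NT replicate 2 or NT replicate 3.

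IL18, the third interleukin-1 family cytokine, was tested in SKMEL2 alone, with 3.57, 3.73 and 3.38 FPKM with KD2, 2.79, 2.43 and 2.77 with KD1 and 4.02, 4.87 and 3.88 in the NT libraries. It fell with both arms there, changes of -0.22 ± 0.08 (adjusted p = 0.04) for KD2 minus NT and -0.59 ± 0.08 (adjusted p = 1.7e-04) for KD1 minus NT, and the KD2 call was lost without NT replicate 2, KD2 replicate 1 or KD2 replicate 3, with -0.13 without NT replicate 2. In A2058 and A375 every library was below 0.5 FPKM.

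Between lines, the IL1A effects of the mean of both arms did not pass limma's F-test (adjusted p = 0.14), whereas the difference between hairpins did (adjusted p = 2.5e-04). For IL1B both differed (adjusted p = 1.5e-05 and 9.7e-04).

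**Figure D3:**
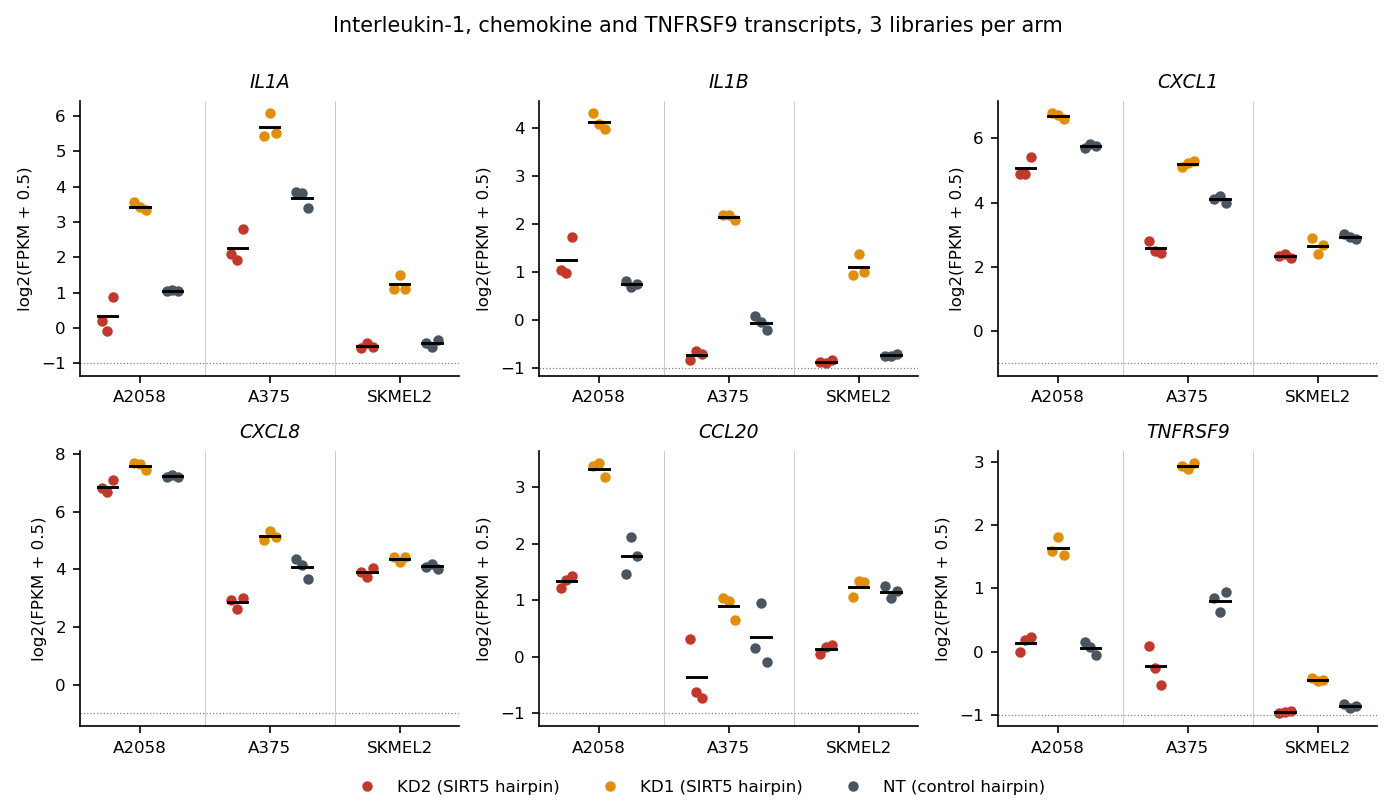
log2(FPKM + 0.5) of 6 members in each library, with KD2, KD1 and NT from left to right within each line, black lines at the mean of 3 libraries, and a dotted line at the level of an FPKM of 0. In IL1A and IL1B the KD1 points stand above the KD2 and NT points in each of the 3 lines, while in CCL20 of A375 the NT points overlap those of both arms.

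IL11 (chr19:55364382-55370463, minus strand, GRCh38) went the other way. It encodes interleukin-11, a cytokine of the IL-6 family that signals through the shared receptor chain gp130. Its values in A2058 were 37.7, 29.03 and 42.7 FPKM with KD2, 4.62, 4.1 and 3.96 with KD1 and 9.42, 8.78 and 8.35 in the NT libraries. A375 held 16.8, 17.4 and 13.3 FPKM with KD2, 5.81, 5.41 and 6.83 with KD1 and 22.6, 17.03 and 21.3 in the NT libraries. SKMEL2 held 2.06, 1.95 and 2.45 FPKM with KD2, 1.35, 1.69 and 1.64 with KD1 and 4.5, 4.11 and 4.16 in the NT libraries. The 3 arms did not overlap in A2058, where KD2 was highest and KD1 lowest, and KD1 was the lowest arm in A375 and SKMEL2 too. KD2 minus KD1 was 2.95 ± 0.12 (adjusted p = 8.0e-09) in A2058, 1.32 ± 0.15 (adjusted p = 1.2e-04) in A375 and 0.37 ± 0.09 (adjusted p = 0.005) in SKMEL2. Against NT, IL11 was the 1 member of 19 to fall with KD1 in all 3 lines (10.6% of all genes), with changes of -0.98 ± 0.12, -1.67 ± 0.15 and -1.21 ± 0.09. KD2 raised it in A2058, by 1.97 ± 0.12 (adjusted p = 1.7e-07), lowered it in SKMEL2, a change of -0.85 ± 0.09 (adjusted p = 3.1e-05), and gave -0.35 ± 0.15 (adjusted p = 0.087) in A375. The KD2 effect differed between lines by the F-test (adjusted p = 4.2e-10).

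IL6, the founding cytokine of the family, was tested in A2058 alone, at 3.03, 3.11 and 4.88 FPKM with KD2, 0.683, 0.887 and 0.963 with KD1 and 5.3, 5.06 and 4.2 in the NT libraries. The KD1 libraries were below both other arms, with KD1 minus NT at -1.99 ± 0.16 (adjusted p = 1.3e-06), KD2 minus NT at -0.38 ± 0.16 (adjusted p = 0.053) and KD2 minus KD1 at 1.61 ± 0.16 (adjusted p = 5.5e-06). In A375 and SKMEL2 IL6 did not pass 0.262 FPKM in any library. LIF, which also signals through gp130, had 6.25, 6.12 and 7.16 FPKM with KD2, 9.42, 9.91 and 9.31 with KD1 and 12.6, 13.7 and 13.1 in the NT libraries in SKMEL2. It fell there with both arms, changes of -0.96 ± 0.06 (adjusted p = 1.1e-06) for KD2 minus NT and -0.44 ± 0.06 (adjusted p = 1.3e-04) for KD1 minus NT. In A375 it was not called in any of the contrasts. In A2058 it was called in KD2 minus KD1 alone, -0.33 ± 0.12 (adjusted p = 0.037), a call lost when libraries were centred on their median and without KD2 replicate 1, KD2 replicate 2 (-0.24), KD1 replicate 1, KD1 replicate 2 or KD1 replicate 3.

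IL24, a member of the IL-10 family first found in differentiating melanoma cells, was the most abundant ligand of the NT arm of A375. In A2058 it had 14.8, 15.2 and 18.9 FPKM with KD2, 2.3, 1.97 and 1.59 with KD1 and 3.16, 3.6 and 3.48 in the NT libraries. In A375 it had 136, 119 and 87.3 FPKM with KD2, 25.9, 28.4 and 29.9 with KD1 and 93.8, 71.3 and 88.6 in the NT libraries. In SKMEL2 it had 58.03, 59.05 and 56.3 FPKM with KD2, 29.98, 37.6 and 33.1 with KD1 and 13.5, 12.1 and 11.6 in the NT libraries. KD2 exceeded KD1 in every library of every line, and KD1 lay below NT in A2058 and A375 but above it in SKMEL2. KD2 minus KD1 was 2.78 ± 0.12 (adjusted p = 1.0e-08) in A2058, 1.98 ± 0.17 (adjusted p = 2.3e-05) in A375 and 0.78 ± 0.08 (adjusted p = 1.5e-05) in SKMEL2. The changes from NT were 2.10 ± 0.12 (adjusted p = 9.3e-08) for KD2 minus NT and -0.68 ± 0.12 (adjusted p = 3.5e-04) for KD1 minus NT in A2058 and 2.18 ± 0.08 (adjusted p = 4.4e-08) for KD2 minus NT and 1.40 ± 0.08 (adjusted p = 4.3e-07) for KD1 minus NT in SKMEL2. In A375 IL24 fell with KD1, a change of -1.57 ± 0.17 (adjusted p = 8.0e-05), and KD2 minus NT was 0.42 ± 0.17 (adjusted p = 0.074). The KD1 effect differed between lines by the F-test (adjusted p = 2.4e-10).

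IL32, a cytokine that induces other inflammatory cytokines, had 0.636, 0.22 and 0.152 FPKM with KD2, 2.91, 3.11 and 4.38 with KD1 and 0.761, 0.476 and 0.608 in the NT libraries in A375. In SKMEL2 it had 0.388, 0.541 and 0.391 FPKM with KD2, 2.32, 2.51 and 2.6 with KD1 and 1.13, 0.986 and 0.99 in the NT libraries. KD1 was the highest arm of both lines, with KD2 minus KD1 at -2.27 ± 0.24 (adjusted p = 7.1e-05) in A375 and -1.66 ± 0.09 (adjusted p = 3.1e-07) in SKMEL2. The filter was passed through KD1 alone in A375 and only with the KD1 libraries in SKMEL2. IL32 rose with KD1 by 1.82 ± 0.24 in A375 and 0.95 ± 0.09 in SKMEL2, and fell with KD2, a change of -0.71 ± 0.09 (adjusted p = 1.1e-04) in SKMEL2. A2058 differed, with 0.75, 1.04 and 1.19 FPKM with KD2, 0.919, 1.12 and 0.914 with KD1 and 2.04, 1.39 and 1.7 in the NT libraries. There both arms lay below NT, differences of -0.57 ± 0.15 (adjusted p = 0.0057) for KD2 minus NT and -0.57 ± 0.15 (adjusted p = 0.0056) for KD1 minus NT, and KD2 minus KD1 was 0.00 ± 0.15. The KD1 effect differed between lines (adjusted p = 1.7e-07). IL7, a lymphocyte growth factor, was tested in A2058 alone, where it ranged over 1.24 to 1.61 FPKM with KD2, 0.993 to 1.16 with KD1 and 1.38 to 1.73 in the NT libraries and fell with KD1, a change of -0.43 ± 0.11 (adjusted p = 0.006), a call lost under quantile normalization. Its KD2 minus KD1, 0.32 ± 0.11 (adjusted p = 0.025), lost its call without KD2 replicate 1, KD2 replicate 3, KD1 replicate 2 or KD1 replicate 3. IL15, which sustains natural killer cells, stayed at or below 0.534 FPKM in all 27 libraries.

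Of the colony-stimulating factors, CSF1, which supports macrophages, had 2.23, 1.88 and 2.41 FPKM with KD2, 1.1, 1.82 and 1.73 with KD1 and 3.48, 3.63 and 3.55 in the NT libraries in A2058. Both arms were below NT without overlap, differences of -0.61 ± 0.13 (adjusted p = 0.0022) for KD2 minus NT and -1.0 ± 0.13 (adjusted p = 6.3e-05) for KD1 minus NT. KD2 minus KD1 was 0.40 ± 0.13 (adjusted p = 0.021), and its call was lost without KD2 replicate 1 (0.38), KD2 replicate 3 (0.33) or KD1 replicate 1 (0.23), the library at 1.10 FPKM. In A375 CSF1 ranged over 2.05 to 2.4 FPKM with KD2, 3.0 to 4.05 with KD1 and 2.19 to 3.21 in the NT libraries, neither arm was called against NT, and KD2 minus KD1, -0.52 ± 0.16 (adjusted p = 0.028), lost its call without KD2 replicate 2, KD1 replicate 1 or KD1 replicate 3. In SKMEL2 it fell with KD1 alone, a change of -0.32 ± 0.09 (adjusted p = 0.013).

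CSF2, the granulocyte and macrophage factor GM-CSF, had 0.878, 1.18 and 1.7 FPKM with KD2, 2.19, 1.61 and 1.58 with KD1 and 0.788, 0.459 and 0.6 in the NT libraries in SKMEL2. Both arms were above NT without overlap, by 0.64 ± 0.18 (adjusted p = 0.012) for KD2 minus NT and 1.04 ± 0.18 (adjusted p = 6.8e-04) for KD1 minus NT. In A375 the values were 0.216, 0.477 and 0.723 FPKM with KD2, 1.16, 1.51 and 1.97 with KD1 and 0.369, 1.13 and 1.39 in the NT libraries, so the NT libraries overlapped both arms. The A375 arms were not called against NT, and KD2 minus KD1, -1.09 ± 0.31 (adjusted p = 0.02), lost its call without KD1 replicate 2, KD1 replicate 3 or KD2 replicate 1. In both lines CSF2 passed the filter only with its KD1 libraries. TNF, the tumour necrosis factor of macrophages and T cells, did not exceed 0.424 FPKM in any library. In A2058 its NT libraries, at 0.424, 0.34 and 0.332 FPKM, lay above 0.0691, 0 and 0.0684 with KD2 and 0.238, 0.149 and 0.165 with KD1.

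The ELR chemokines CXCL1, CXCL2, CXCL3 and CXCL8 bind the receptor CXCR2, CXCL8 also CXCR1, and attract neutrophils, and CXCL1 was first described as a growth factor of melanoma cells. Their genes lie on chromosome 4, CXCL8 at chr4:73740519-73743716, plus strand, CXCL1 at chr4:73869393-73871308, plus strand, CXCL3 at chr4:74036589-74038807, minus strand and CXCL2 at chr4:74097040-74099196, minus strand (GRCh38). The deposited counting could have split reads between CXCL1, CXCL2 and CXCL3, so their separate values are uncertain. All 4 were lower with KD2 than with KD1 in A2058 and A375, where they were tested, and so were CXCL1 and CXCL8 in SKMEL2.

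CXCL1 values in A2058 were 29.5, 29.5 and 42.7 FPKM with KD2, 109.6, 104 and 97.3 with KD1 and 51.9, 55.8 and 53.4 in the NT libraries. In A375 they were 6.5, 5.14 and 4.9 FPKM with KD2, 33.8, 36.9 and 38.7 with KD1 and 16.9, 17.9 and 15.2 in the NT libraries. In SKMEL2 they were 4.51, 4.73 and 4.33 FPKM with KD2, 6.91, 4.78 and 5.94 with KD1 and 7.57, 7.19 and 6.79 in the NT libraries. The 3 arms were fully apart in A2058 and A375, in the order KD2, NT, KD1 from low to high, whereas in SKMEL2 NT and KD1 overlapped above KD2. The difference KD2 minus KD1 was -1.62 ± 0.12 (adjusted p = 5.8e-07) in A2058, -2.63 ± 0.13 (adjusted p = 1.0e-06) in A375 and -0.33 ± 0.11 (adjusted p = 0.019) in SKMEL2, and the SKMEL2 call was lost without KD1 replicate 1 (-0.21), KD1 replicate 3 (-0.32) or KD2 replicate 3 (-0.30). CXCL1 and RELA were the 2 of 19 members to fall with KD2 in all 3 lines (10.7% of all genes), CXCL1 with changes of -0.68 ± 0.12, -1.52 ± 0.13 and -0.61 ± 0.11. With KD1 it rose by 0.94 ± 0.12 (adjusted p = 4.1e-05) in A2058 and 1.11 ± 0.13 (adjusted p = 1.1e-04) in A375. KD1 minus NT in SKMEL2, -0.28 ± 0.11 (adjusted p = 0.037), lost its call without NT replicate 1, NT replicate 2, KD1 replicate 2 or KD1 replicate 3.

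CXCL8, interleukin-8, was the most abundant ligand of A2058, with 112, 102 and 137 FPKM with KD2, 205, 204 and 175 with KD1 and 146, 156 and 148 in the NT libraries. A375 had 7.22, 5.66 and 7.6 FPKM with KD2, 32.1, 40.3 and 34.2 with KD1 and 20.3, 17.5 and 12.1 in the NT libraries. SKMEL2 had 14.7, 12.8 and 16.1 FPKM with KD2, 21.2, 18.6 and 21.01 with KD1 and 16.6, 17.8 and 15.8 in the NT libraries. KD2 was below KD1 without overlap in each line, and the separation was widest in A375. Between the hairpins, KD2 minus KD1 was -0.74 ± 0.10 (adjusted p = 4.8e-05) in A2058, -2.30 ± 0.19 (adjusted p = 1.8e-05) in A375 and -0.47 ± 0.08 (adjusted p = 6.4e-04) in SKMEL2. Against NT the arms moved apart to either side, by -0.37 ± 0.10 (adjusted p = 0.0062) for KD2 minus NT and 0.37 ± 0.10 (adjusted p = 0.0055) for KD1 minus NT in A2058 and by -1.21 ± 0.19 (adjusted p = 0.0012) for KD2 minus NT and 1.10 ± 0.19 (adjusted p = 0.0012) for KD1 minus NT in A375. In SKMEL2 KD2 minus NT was -0.20 ± 0.08 (adjusted p = 0.055), and the KD1 rise, 0.27 ± 0.08 (adjusted p = 0.016), lost its call without NT replicate 3, KD1 replicate 1 or KD1 replicate 3. With the mean of both arms CXCL8 was not called in any line, with values of 0.00 ± 0.08, -0.05 ± 0.17 and 0.03 ± 0.07.

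Of the chemokine changes from NT, the largest rise was that of CXCL2, 2.89 ± 0.25 (adjusted p = 1.7e-05) with KD1 in A375, where its values were 1.58, 0.672 and 1.57 FPKM with KD2, 8.58, 11.4 and 13.1 with KD1 and 1.25, 0.82 and 1.06 in the NT libraries. KD1 stood above both other arms, which overlapped, and KD2 minus NT was 0.16 ± 0.25 (adjusted p = 0.6). In A2058 CXCL2 had 1.66, 2.15 and 2.22 FPKM with KD2, 4.11, 4.23 and 4.32 with KD1 and 5.09, 5.62 and 5.49 in the NT libraries, and both arms lay below NT, differences of -1.24 ± 0.09 (adjusted p = 5.2e-07) for KD2 minus NT and -0.32 ± 0.09 (adjusted p = 0.0071) for KD1 minus NT. The KD1 effect differed between lines by the F-test (adjusted p = 2.8e-09). CXCL3 had 2.21, 2.17 and 2.47 FPKM with KD2, 5.53, 4.83 and 4.75 with KD1 and 2.82, 2.96 and 2.41 in the NT libraries in A2058. In A375 it had 0.997, 1.46 and 1.21 FPKM with KD2, 6.15, 5.85 and 5.74 with KD1 and 2.33, 2.3 and 2.46 in the NT libraries. KD1 was the highest arm in both, with KD2 minus KD1 at -0.99 ± 0.09 (adjusted p = 2.1e-06) and -1.90 ± 0.13 (adjusted p = 6.9e-06). Its fall with KD2 in A2058, -0.21 ± 0.09 (adjusted p = 0.047), lost its call under most other settings and without NT replicate 1, NT replicate 2, KD1 replicate 2, KD1 replicate 3, KD2 replicate 1 or KD2 replicate 2. In SKMEL2 CXCL2 and CXCL3 did not exceed 0.487 FPKM.

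Among the other chemokines, CCL20, the ligand of CCR6, had 1.84, 2.06 and 2.19 FPKM with KD2, 9.89, 10.2 and 8.58 with KD1 and 2.27, 3.83 and 2.93 in the NT libraries in A2058. SKMEL2 had 0.538, 0.632 and 0.657 FPKM with KD2, 1.58, 2.04 and 2.01 with KD1 and 1.88, 1.57 and 1.73 in the NT libraries. A375 had 0.747, 0.147 and 0.102 FPKM with KD2, 1.55, 1.49 and 1.08 with KD1 and 0.62, 1.44 and 0.441 in the NT libraries. KD2 was below KD1 in every line, and in A375 the NT libraries overlapped both arms. The hairpin difference, KD2 minus KD1, was -1.99 ± 0.14 (adjusted p = 3.9e-07) in A2058, -1.24 ± 0.33 (adjusted p = 0.015) in A375 and -1.10 ± 0.10 (adjusted p = 8.0e-06) in SKMEL2, and the A375 call was lost without KD1 replicate 1 or KD2 replicate 2. In A375 CCL20 passed the filter only with its KD1 libraries. CCL20 rose with KD1 in A2058, by 1.54 ± 0.14 (adjusted p = 3.2e-06), and fell with KD2 in A2058, a change of -0.45 ± 0.14 (adjusted p = 0.014), and in SKMEL2, a change of -1.0 ± 0.10 (adjusted p = 2.0e-05). The KD2 fall in A2058 was -0.29 without NT replicate 2.

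CXCL16, a membrane-bound ligand of CXCR6, was higher with KD2 than with KD1 in each line. Its values in A2058 were 4.43, 4.18 and 4.96 FPKM with KD2, 1.65, 2.01 and 1.61 with KD1 and 4.19, 3.2 and 3.95 in the NT libraries. In A375 they were 16.6, 14.6 and 11.6 FPKM with KD2, 5.73, 4.33 and 5.7 with KD1 and 6.62, 5.11 and 5.31 in the NT libraries. In SKMEL2 they were 2.72, 2.65 and 2.58 FPKM with KD2, 1.41, 1.12 and 1.12 with KD1 and 4.13, 3.91 and 4.28 in the NT libraries. KD2 exceeded NT without overlap in A375 alone, and both arms were below NT in SKMEL2. The difference KD2 minus KD1 was 1.15 ± 0.11 (adjusted p = 3.0e-06), 1.35 ± 0.17 (adjusted p = 1.9e-04) and 0.88 ± 0.07 (adjusted p = 4.7e-06) in A2058, A375 and SKMEL2, and these differences did not pass the test between lines (adjusted p = 0.083). It fell with KD1, a change of -0.92 ± 0.11 in A2058 and -1.43 ± 0.07 in SKMEL2, fell with KD2, a change of -0.55 ± 0.07 in SKMEL2, and rose with KD2 by 1.25 ± 0.17 in A375.

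CCL2, which attracts monocytes, was tested in A375 alone, where it had 1.8, 2.27 and 1.97 FPKM with KD2, 6.41, 5.47 and 6.83 with KD1 and 1.64, 1.22 and 1.14 in the NT libraries. It rose with KD1 by 1.88 ± 0.15 (adjusted p = 1.3e-05) and with KD2 by 0.46 ± 0.15 (adjusted p = 0.034), and the KD2 call was lost without NT replicate 2, NT replicate 3, KD1 replicate 1 or KD2 replicate 2. Without NT replicate 2 the KD2 value was 0.42. CXCL10, an interferon-induced ligand of CXCR3, had 0, 0 and 0.0488 FPKM with KD2, 0.288, 0.197 and 0.518 with KD1 and 1.26, 2.52 and 1.89 in the NT libraries in A2058. In A375 it had 0, 0 and 0.139 FPKM with KD2, 1.17, 2.07 and 1.67 with KD1 and 1.19, 0.434 and 0.93 in the NT libraries. The KD2 libraries held 0 to 2 reads in A2058, so that the fitted changes there depend on the pseudocount and no fold is given. CXCL10 was called lower with both arms in A2058 and with KD2 in A375, and KD1 minus NT in A375 was 0.68 ± 0.26 (adjusted p = 0.052). It had passed the filter through NT alone in A2058, and only with its KD1 libraries in A375. In SKMEL2 it was listed at 0 in 7 of 9 libraries.

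**Figure D4:**
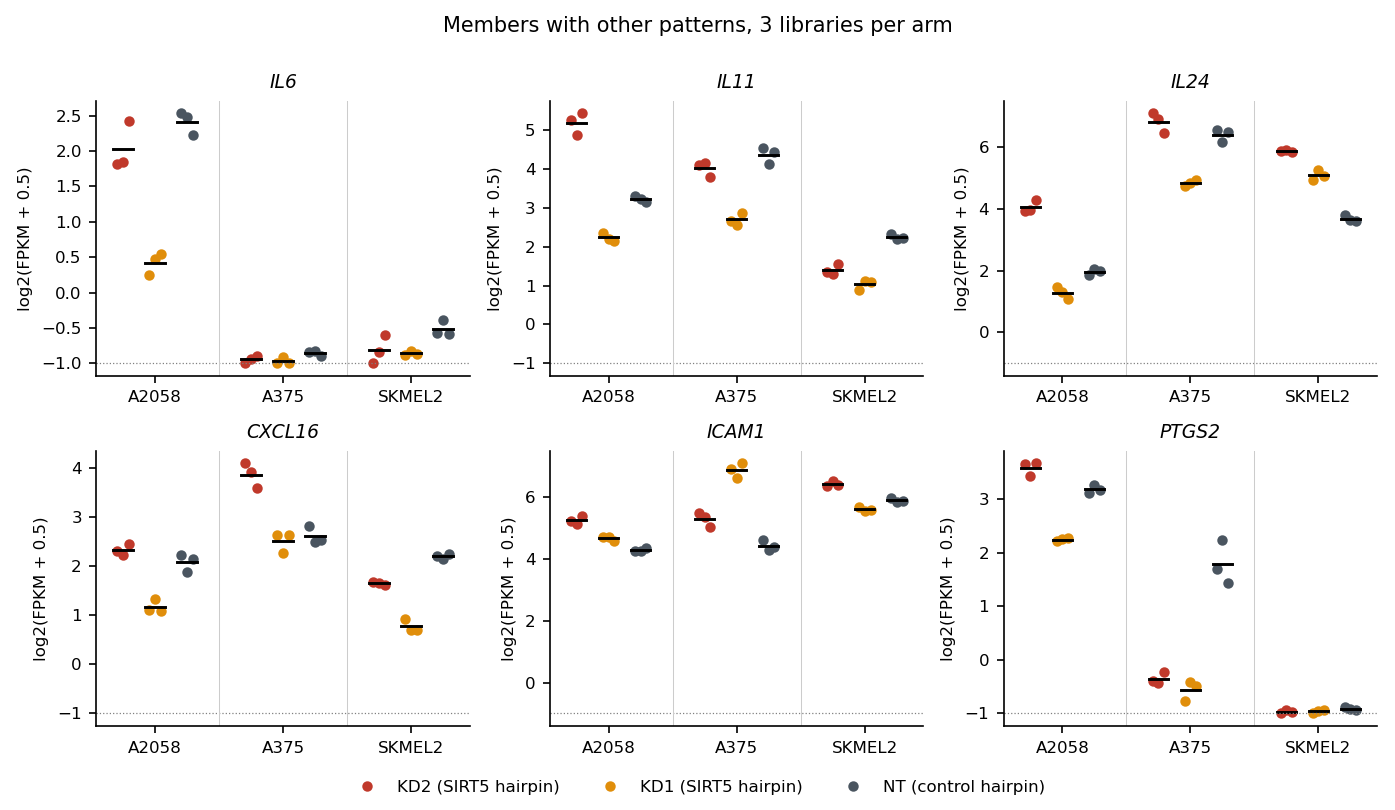
log2(FPKM + 0.5) of IL6, IL11, IL24, CXCL16, ICAM1 and PTGS2 in each library, with KD2, KD1 and NT from left to right within each line, black lines at the mean of 3 libraries and a dotted line at the level of an FPKM of 0. IL11, IL24 and CXCL16 have the KD2 points above the KD1 points in each line, while ICAM1 has them below in A375 and above in A2058 and SKMEL2.

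Of the subunit genes, RELA was lower with KD2 and RELB higher with KD1 than NT in every line. RELA, the main activating subunit, had 8.97, 9.36 and 10.4 FPKM with KD2, 14.6, 16.2 and 16.1 with KD1 and 14.3, 14.2 and 14.3 in the NT libraries in A2058. In A375 it had 23.1, 20.1 and 17.2 FPKM with KD2, 35.1, 30.3 and 39.9 with KD1 and 28.2, 26.2 and 29.96 in the NT libraries. In SKMEL2 it had 4.75, 5.01 and 4.68 FPKM with KD2, 14.1, 15.02 and 14.7 with KD1 and 10.2, 10.1 and 10.6 in the NT libraries. The KD2 libraries were below NT and KD1 in every line, and in SKMEL2 KD2, NT and KD1 followed each other without overlap. RELA fell with KD2, a change of -0.55 ± 0.06 (adjusted p = 1.5e-05) in A2058, -0.48 ± 0.14 (adjusted p = 0.022) in A375 and -1.02 ± 0.04 (adjusted p = 9.6e-08) in SKMEL2. The A375 call was lost when libraries were centred on their median, where the value was -0.37, and without NT replicate 1, NT replicate 3 or KD2 replicate 2. KD1 raised RELA in SKMEL2, by 0.48 ± 0.04 (adjusted p = 6.8e-06), and gave 0.13 ± 0.06 (adjusted p = 0.077) in A2058 and 0.31 ± 0.14 (adjusted p = 0.1) in A375. Between the hairpins, KD2 minus KD1 was -0.68 ± 0.06 (adjusted p = 2.5e-06), -0.79 ± 0.14 (adjusted p = 0.0018) and -1.51 ± 0.04 (adjusted p = 8.6e-09) in A2058, A375 and SKMEL2.

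RELB, the activating partner of the NFKB2 product, rose with KD1 in each line, as did CXCL8, IL1A and IL1B, so that 4 of 19 members did so (12.4% of all genes). Among them, IL1A in SKMEL2 and IL1B in A375 and SKMEL2 had passed the filter through KD1 alone. For RELB, A2058 had 12.1, 9.84 and 12.6 FPKM with KD2, 10.96, 12.4 and 12.8 with KD1 and 7.97, 7.04 and 7.51 in the NT libraries. A375 had 22.7, 21.7 and 18.1 FPKM with KD2, 47.9, 40.97 and 53.8 with KD1 and 30.99, 22.2 and 28.01 in the NT libraries. SKMEL2 had 9.42, 10.5 and 9.79 FPKM with KD2, 20.2, 22.2 and 19.5 with KD1 and 10.6, 10.2 and 11.2 in the NT libraries. KD1 stood above NT in each line, while KD2 stood above NT in A2058 and overlapped it in A375 and SKMEL2. The KD1 changes were 0.65 ± 0.09, 0.81 ± 0.16 and 0.92 ± 0.06, and they did not pass the test between lines (adjusted p = 0.33). With KD2 RELB rose in A2058, by 0.58 ± 0.09 (adjusted p = 2.2e-04), and the values were -0.36 ± 0.16 in A375 and -0.10 ± 0.06 in SKMEL2, neither called.

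NFKB2, the precursor of p52, had 32.7, 32 and 37.7 FPKM with KD2, 17.8, 20.2 and 17.7 with KD1 and 20.8, 19.96 and 20.3 in the NT libraries in A2058. A375 had 52.3, 47.98 and 38.3 FPKM with KD2, 73.9, 67.4 and 87.5 with KD1 and 51.4, 44.6 and 49.3 in the NT libraries. SKMEL2 had 35.7, 36.9 and 38.3 FPKM with KD2, 32.7, 33.1 and 31.8 with KD1 and 25.3, 23.96 and 23.8 in the NT libraries. KD2 was the highest arm in A2058 and SKMEL2, and KD1 in A375. NFKB2 rose with KD2 by 0.73 ± 0.07 (adjusted p = 4.4e-06) in A2058 and 0.59 ± 0.04 (adjusted p = 1.3e-06) in SKMEL2, and with KD1 by 0.64 ± 0.15 (adjusted p = 0.0053) in A375 and 0.41 ± 0.04 (adjusted p = 9.3e-06) in SKMEL2. The A375 rise was 0.32 under quantile normalization. KD2 minus KD1 differed in sign between lines, with 0.86 ± 0.07 in A2058, -0.72 ± 0.15 in A375 and 0.18 ± 0.04 in SKMEL2 (adjusted p between lines = 2.3e-08).

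NFKB1, the precursor of p50, had 15.5, 17.1 and 16.7 FPKM with KD2, 12.3, 11.9 and 11.1 with KD1 and 12.2, 11.3 and 11.6 in the NT libraries in A2058. SKMEL2 had 11.9, 11.7 and 11.8 FPKM with KD2, 8.2, 8.12 and 8.35 with KD1 and 10.8, 10.4 and 10.4 in the NT libraries. In A2058 KD2 was above overlapping KD1 and NT libraries, and in SKMEL2 KD2, NT and KD1 ran from high to low without overlap. NFKB1 rose with KD2 by 0.47 ± 0.06 (adjusted p = 2.4e-05) in A2058 and 0.16 ± 0.03 (adjusted p = 0.0028) in SKMEL2 and fell with KD1, a change of -0.34 ± 0.03 (adjusted p = 1.6e-05) in SKMEL2. In A375, with 29.6 to 33.9 FPKM with KD2, 25.4 to 28.9 with KD1 and 25.1 to 29.5 in the NT libraries, it was not called in any contrast. REL, the subunit best known from lymphocytes, stayed at or below 0.659 FPKM in all libraries and was not tested. In A375 it had 0.0775, 0.128 and 0.26 FPKM with KD2, 0.257, 0.365 and 0.372 with KD1 and 0.539, 0.551 and 0.492 in the NT libraries.

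NFKBIA, the inhibitor IkB-alpha, which is itself induced by NF-kB, had 11.6, 11.7 and 11.95 FPKM with KD2, 18.1, 16.4 and 15.9 with KD1 and 16.4, 16.7 and 16.3 in the NT libraries in A2058. A375 had 23.6, 22.03 and 18.4 FPKM with KD2, 49.3, 46.7 and 57.3 with KD1 and 19.9, 15.05 and 18.4 in the NT libraries. SKMEL2 had 4.99, 4.53 and 5.3 FPKM with KD2, 9.28, 9.03 and 9.55 with KD1 and 5.91, 6.18 and 6.35 in the NT libraries. KD2 was below KD1 without overlap in each line, and NFKBIA rose with KD1 in A375 and SKMEL2. The hairpin difference, KD2 minus KD1, was -0.49 ± 0.05 (adjusted p = 7.1e-06) in A2058, -1.24 ± 0.14 (adjusted p = 1.3e-04) in A375 and -0.85 ± 0.06 (adjusted p = 9.2e-07) in SKMEL2. The KD1 rise was 1.50 ± 0.14 (adjusted p = 3.5e-05) in A375 and 0.56 ± 0.06 (adjusted p = 1.6e-05) in SKMEL2, with 0.03 ± 0.05 in A2058. KD2 lowered NFKBIA, a change of -0.47 ± 0.05 (adjusted p = 1.3e-05) in A2058 and -0.29 ± 0.06 (adjusted p = 0.0014) in SKMEL2.

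NFKBIZ, a nuclear IkB protein that modulates a subset of NF-kB genes, had 1.24, 1.13 and 1.57 FPKM with KD2, 5.93, 5.69 and 5.56 with KD1 and 1.35, 1.88 and 1.23 in the NT libraries in A375. KD1 alone was high there, with KD1 minus NT at 1.66 ± 0.16 (adjusted p = 3.2e-05) and KD2 minus KD1 at -1.79 ± 0.16 (adjusted p = 2.5e-05). In A2058 it ranged over 6.41 to 7.39 FPKM with KD2, 7.14 to 7.38 with KD1 and 5.73 to 6.34 in the NT libraries and in SKMEL2 over 4.62 to 4.89 FPKM with KD2, 5.18 to 5.62 with KD1 and 5.23 to 5.4 in the NT libraries. Both arms were called higher in A2058, by 0.17 ± 0.06 (adjusted p = 0.027) for KD2 minus NT and 0.26 ± 0.06 (adjusted p = 0.0031) for KD1 minus NT, the KD2 call being lost without NT replicate 1, NT replicate 2 or KD2 replicate 2. In SKMEL2 KD2 minus NT, -0.14 ± 0.05 (adjusted p = 0.024), lost its call without NT replicate 2 or KD2 replicate 2, and KD1 minus NT was 0.04 ± 0.05 (adjusted p = 0.47). The KD1 effect differed between lines (adjusted p = 2.8e-09).

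TNFAIP3, the ubiquitin-editing inhibitor A20, had 14.9, 15.1 and 14.8 FPKM with KD2, 11.3, 10.7 and 9.52 with KD1 and 10.6, 11.5 and 10.5 in the NT libraries in A2058. A375 had 3.25, 3.23 and 3.58 FPKM with KD2, 8.35, 8.0 and 7.53 with KD1 and 6.56, 4.26 and 5.19 in the NT libraries. SKMEL2 had 2.79, 2.8 and 2.46 FPKM with KD2, 4.92, 5.1 and 4.76 with KD1 and 3.17, 3.0 and 3.09 in the NT libraries. KD2 was the highest arm in A2058 and the lowest in A375 and SKMEL2, where KD1 was the highest. It changed by -0.58 ± 0.15 (adjusted p = 0.012) for KD2 minus NT and 0.55 ± 0.15 (adjusted p = 0.012) for KD1 minus NT in A375 and by -0.17 ± 0.06 (adjusted p = 0.024) for KD2 minus NT and 0.60 ± 0.06 (adjusted p = 1.2e-05) for KD1 minus NT in SKMEL2. The A375 rise with KD1 lost its call without NT replicate 2 (0.41), and the SKMEL2 fall with KD2 lost its call without NT replicate 1, NT replicate 3 or KD2 replicate 3. In A2058 KD2 raised TNFAIP3 by 0.44 ± 0.06 (adjusted p = 1.0e-04). The difference KD2 minus KD1 was 0.49 ± 0.06 in A2058, -1.13 ± 0.15 in A375 and -0.77 ± 0.06 in SKMEL2 (adjusted p between lines = 6.9e-09).

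**Figure D5:**
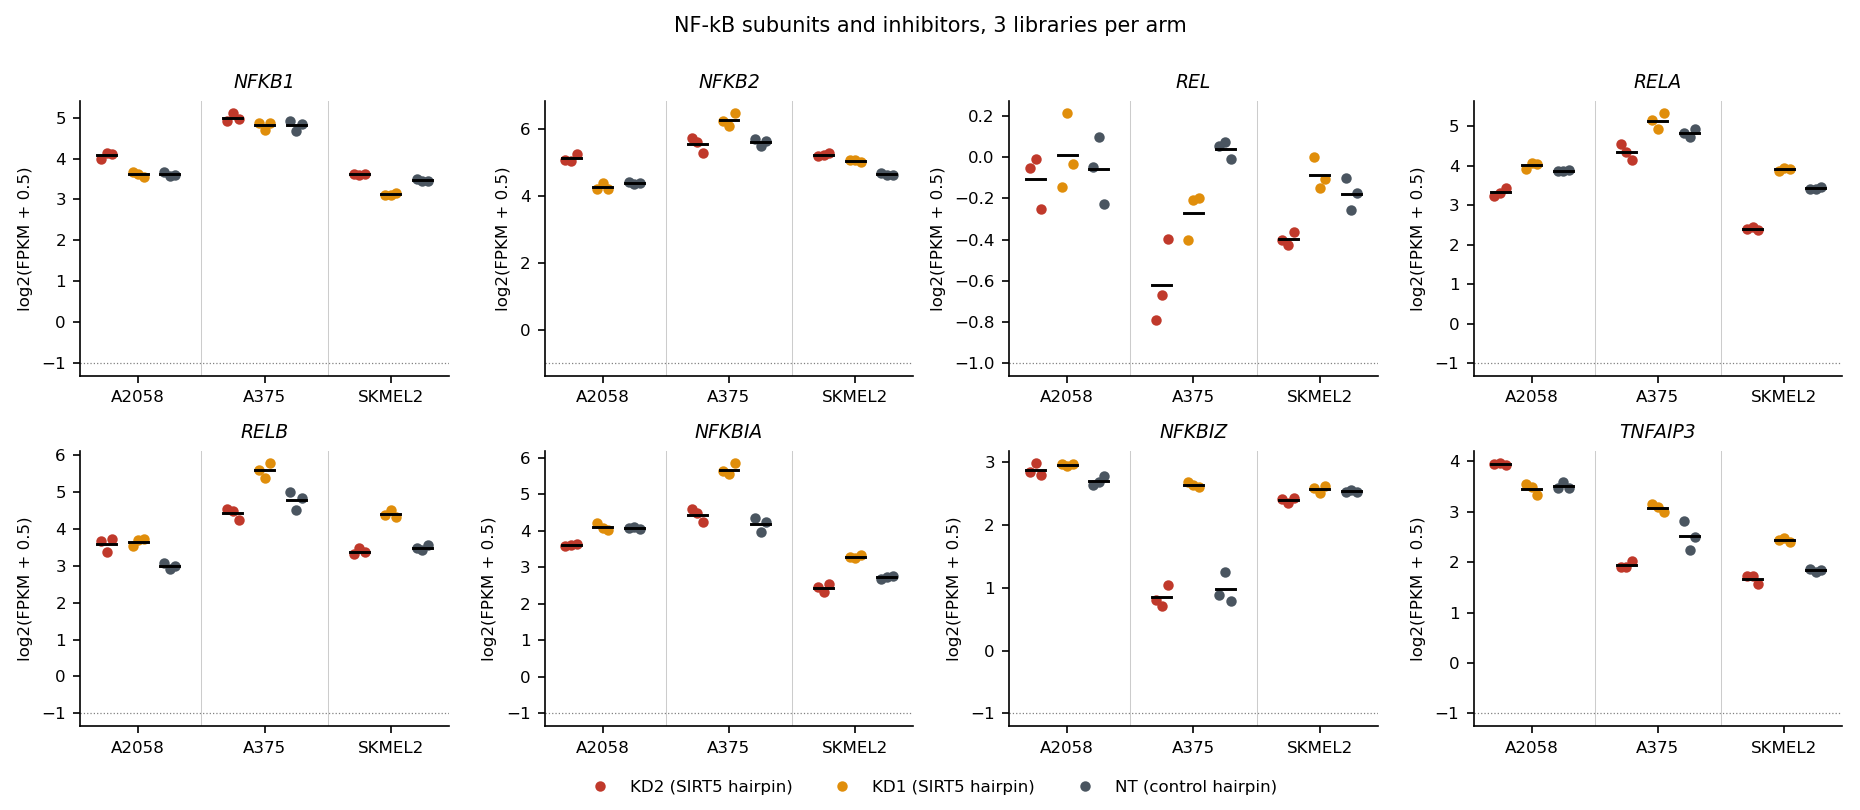
log2(FPKM + 0.5) of the 5 NF-kB subunits and 3 inhibitors and modulators in each library, with KD2, KD1 and NT from left to right within each line, black lines at the mean of 3 libraries and a dotted line at the level of an FPKM of 0. RELA and NFKBIA have the KD2 points below the KD1 points in each line, and REL stays below an FPKM of 1 throughout.

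TNFRSF9, the T-cell costimulatory receptor 4-1BB, was, like IL1A and IL1B, highest with KD1. A2058 had 0.497, 0.64 and 0.677 FPKM with KD2, 2.51, 3.01 and 2.37 with KD1 and 0.614, 0.549 and 0.467 in the NT libraries. A375 had 0.562, 0.34 and 0.192 FPKM with KD2, 7.15, 6.9 and 7.34 with KD1 and 1.3, 1.04 and 1.41 in the NT libraries. SKMEL2 had 0.00871, 0.0159 and 0.0198 FPKM with KD2, 0.246, 0.228 and 0.23 with KD1 and 0.0637, 0.0379 and 0.0537 in the NT libraries and was not tested. KD1 was above both other arms in every line. In A2058 TNFRSF9 had passed the filter through KD1 alone, so a high KD1 arm was built in there. KD2 was 4.35-fold below KD1 in A2058 and 19.5-fold in A375 in mean FPKM, with limma differences of -1.50 ± 0.12 (adjusted p = 1.4e-06) and -3.16 ± 0.17 (adjusted p = 1.9e-06). It rose with KD1 by 1.58 ± 0.12 (adjusted p = 1.1e-06) in A2058 and 2.13 ± 0.17 (adjusted p = 1.4e-05) in A375, and fell with KD2, a change of -1.03 ± 0.17 (adjusted p = 0.0017) in A375.

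ICAM1, the adhesion receptor for leukocyte integrins, was the 1 member of 19 to rise with KD2 in all 3 lines (9.76% of all genes). A2058 had 36.99, 34.03 and 41.3 FPKM with KD2, 25.4, 25.5 and 23.6 with KD1 and 18.4, 18.4 and 19.7 in the NT libraries. A375 had 44.1, 40.6 and 32.3 FPKM with KD2, 119, 97.8 and 135 with KD1 and 23.7, 18.96 and 20.5 in the NT libraries. SKMEL2 had 81.3, 91.8 and 83.99 FPKM with KD2, 50.3, 45.7 and 47.5 with KD1 and 62.6, 56.1 and 57.5 in the NT libraries. The arms were fully apart in each line, with KD1 above KD2 in A375 and below it in A2058 and SKMEL2. With KD2 ICAM1 rose by 0.97 ± 0.07 (adjusted p = 4.7e-07) in A2058, 0.87 ± 0.16 (adjusted p = 0.0027) in A375 and 0.54 ± 0.06 (adjusted p = 3.2e-05) in SKMEL2, and these effects did not pass the test between lines (adjusted p = 0.054). KD1 raised it by 2.45 ± 0.16 (adjusted p = 4.4e-06), or 5.58-fold in mean FPKM, in A375 and by 0.39 ± 0.07 (adjusted p = 3.7e-04) in A2058, and lowered it, a change of -0.29 ± 0.06 (adjusted p = 0.0015) in SKMEL2. The KD1 effect differed between lines (adjusted p = 2.6e-11), and in A2058 it was 0.24 under quantile normalization.

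PTGS2, cyclooxygenase-2, the inducible enzyme of prostaglandin synthesis, had 12.2, 10.3 and 12.2 FPKM with KD2, 4.14, 4.26 and 4.33 with KD1 and 8.22, 9.1 and 8.49 in the NT libraries in A2058. In A375 it had 0.259, 0.241 and 0.356 FPKM with KD2, 0.087, 0.249 and 0.217 with KD1 and 2.74, 4.21 and 2.19 in the NT libraries. In A2058 the arms ran KD2, NT, KD1 from high to low, whereas in A375 both arms were far below NT and overlapped each other. It changed by 0.40 ± 0.07 (adjusted p = 4.1e-04) for KD2 minus NT and -0.94 ± 0.07 (adjusted p = 7.1e-07) for KD1 minus NT in A2058 and by -2.14 ± 0.22 (adjusted p = 1.5e-04) for KD2 minus NT and -2.34 ± 0.22 (adjusted p = 3.2e-05) for KD1 minus NT in A375. In A375 the KD2 mean was 10.7-fold and the KD1 mean 16.5-fold below the NT mean. PTGS2 had passed the filter there through NT alone, so that a fall was built in. SKMEL2 libraries did not exceed 0.041 FPKM. The effect of the mean of both arms differed between lines (adjusted p = 9.0e-10).

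TNFAIP2, a TNF-induced protein of cell protrusions, fell in A2058 with both arms, changes of -0.75 ± 0.08 (adjusted p = 1.1e-05) for KD2 minus NT and -0.83 ± 0.08 (adjusted p = 4.7e-06) for KD1 minus NT, where it ranged over 1.45 to 1.49 FPKM with KD2, 1.25 to 1.48 with KD1 and 2.71 to 2.88 in the NT libraries. In A375 it was at 4.66 to 6.73 FPKM with KD2, 8.08 to 8.8 with KD1 and 6.11 to 6.78 in the NT libraries. There neither arm was called against NT, but KD2 was called lower than KD1. In SKMEL2 it stayed at or below 0.325 FPKM.

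Averaged over the 3 lines, in a fit of all 27 libraries with 30 members tested, KD2 was below KD1 in 19 members (34.6% of all genes) and above it in 6 (30.5%). That made 83.3% of the members against 65.2% of all genes, with a median of -0.52 against -0.02. Averages of a single arm take KD1 and KD2 to be the same hairpins in each line, which the labels do not state. The mean of both arms against NT gave 15 higher (32.0% of all genes) and 12 lower (32.0%). limma's F-test for unequal effects in the lines called 21 of 30 members for the mean of both arms (61.1% of all genes), 23 for KD2 (60.7%), 25 for KD1 (59.0%) and 26 for KD2 minus KD1 (54.3%). The 4 members not called for KD2 minus KD1 were IL7, CSF2, CXCL16 and CCL20. On the log2(FPKM + 0.5) scale a difference in level between lines can alone give unequal effects.

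In the NT arms all 30 tested members differed between lines (88.6% of all genes), and line cannot be told apart from the set in which its samples were numbered. SKMEL2 was lower than A2058 in 19 members (32.0% of all genes) and higher in 7 (37.2%). It was lower than A375 in 20 (34.2% of all genes) and higher in 6 (38.8%). A375 was higher than A2058 in 13 (35.6% of all genes) and lower in 14 (35.1%). The NT mean of IL1A was 0.241 ± 0.0461 FPKM in SKMEL2, 12.5 ± 2.18 in A375 and 1.58 ± 0.0309 in A2058 (SD, n = 3 each). IL24 was at 12.4 ± 0.966 in SKMEL2, 84.6 ± 11.7 in A375 and 3.42 ± 0.227 in A2058. CXCL8 was highest in A2058, with 16.7 ± 0.988 in SKMEL2, 16.6 ± 4.18 in A375 and 150.0 ± 5.17 in A2058, and SKMEL2 minus A375 was 0.04 ± 0.15 (adjusted p = 0.83). ICAM1 was highest in SKMEL2, with 58.7 ± 3.39, against 21.1 ± 2.45 in A375 and 18.8 ± 0.744 in A2058, where A375 minus A2058 was 0.15 ± 0.11 (adjusted p = 0.23). RELA was at 10.3 ± 0.287 in SKMEL2, 28.1 ± 1.9 in A375 and 14.2 ± 0.0482 in A2058.

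Other genes of the pathway were counted over the 3 lines. Of 23 receptors for the cytokines above, 12 were tested, and KD2 minus KD1 was higher in 3 (30.5% of all genes) and lower in 7 (34.6%), with a median of -0.23 against -0.02 over all genes. With the mean of both arms 6 receptors rose (32.0% of all genes) and the other 6 were not called. IL6R, the interleukin-6 receptor, rose with KD2 by 1.52 ± 0.05 and fell with KD1, a change of -0.11 ± 0.05, while IL1RAP, the accessory chain of the interleukin-1 receptor, fell with KD2, a change of -0.30 ± 0.08, and rose with KD1 by 1.02 ± 0.08. IL1R1, the signalling receptor for interleukin-1, rose with both, by 0.77 ± 0.05 with KD2 and 0.29 ± 0.05 with KD1. IL7R rose with KD2 by 0.58 ± 0.11, and KD1 gave 0.10 ± 0.11, not called.

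Of 28 genes that relay the signal to NF-kB, 26 were tested, and KD2 minus KD1 was higher in 3 (30.5% of all genes) and lower in 13 (34.6%). With the mean of both arms 8 rose and 7 fell, near the 32.0% of all genes in each direction. BIRC3, a ubiquitin ligase of TNF signalling, rose by 1.24 ± 0.16 with KD2 and 1.24 ± 0.16 with KD1, and the adaptor TRAF1 by 0.74 ± 0.07 and 0.93 ± 0.07 in that order. CHUK, the kinase IKK-alpha, fell, a change of -0.62 ± 0.11 with KD2 and -0.56 ± 0.11 with KD1, and IRAK1, a kinase of the interleukin-1 receptor, rose by 0.30 ± 0.07 and 0.61 ± 0.07.

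Of 13 further inhibitors and feedback genes, 12 were tested, with 6 higher and 2 lower for the mean of both arms (32.0% of all genes each way). For KD2 minus KD1 3 were higher and 5 lower, near the 30.5% and 34.6% of all genes. TNIP2, an A20-binding protein, rose by 0.58 ± 0.07 with KD2 and 0.73 ± 0.07 with KD1. ZC3H12A, the ribonuclease regnase-1 that degrades cytokine mRNA, rose with KD1 by 0.93 ± 0.07 after 0.07 ± 0.07 with KD2, not called. BCL3, a nuclear IkB protein, fell, a change of -0.31 ± 0.08 with KD2 and -0.41 ± 0.08 with KD1, and ZFP36, which destabilises cytokine mRNA, rose by 0.21 ± 0.07 and 0.43 ± 0.07.

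Of 30 other textbook NF-kB target genes, 22 were tested, with 14 higher and 5 lower for the mean of both arms (32.0% of all genes each way). For KD2 minus KD1 2 were higher (30.5% of all genes) and 13 lower (34.6%), with a median of -0.34 against -0.02 over all genes. SDC4, the cell-surface proteoglycan syndecan-4, rose by 1.56 ± 0.06 with KD2 and 1.60 ± 0.06 with KD1, without a call between the arms. CD83 rose by 0.95 ± 0.07 and 1.56 ± 0.07, and PLAU, the urokinase plasminogen activator, by 0.68 ± 0.07 and 1.09 ± 0.07, in the same order of arms. CCL5, a chemokine also induced by interferon, fell, a change of -0.93 ± 0.10 with KD2 and -1.14 ± 0.10 with KD1. Of 12 prostaglandin genes beside PTGS2, 8 were tested, and 1 rose and 5 fell with the mean of both arms (32.0% of all genes each way). PLA2G4A, the phospholipase that frees arachidonic acid, fell, a change of -0.89 ± 0.14 with KD2 and -0.67 ± 0.14 with KD1. The transporter ABCC4 fell, a change of -0.29 ± 0.08 and -0.68 ± 0.08, and the synthases PTGIS and PTGES3, a change of -0.42 ± 0.04 and -0.41 ± 0.04 with KD2.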

How the data were processed

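Gene-level FPKM of 27 RNA-seq libraries, deposited by the authors, were analysed. Per the submitters' processing notes, these list FastQC 0.11.9, MultiQC 1.9, Trimmomatic 0.39, STAR 2.7.3a, Subread 2.0.0, DESeq2 1.28.1, the build GRCh38 and GENCODE 34, with nothing on the use of strand in counting. The comparison tables that the authors deposited hold a log2 fold change, an adjusted p-value and a base mean signal, and their calls are quoted as the authors' and were not refitted. One raw file of A375 NT replicate 2 is described in the labels as truncated.

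Scaled by the base mean over all lines, positive FPKM values were whole multiples of 1 read in 100% of cases, within 0.05 of a read, which gave each library's read total, median 31.2 M. The chi-square between replicates averaged at least 3.42 per gene, so all 27 libraries were counted as separate. limma 3.58.1 in R 4.3.3 with a variance trend was fitted to log2(FPKM + 0.5) of 12797 genes in A2058, 12629 in A375, 13899 in SKMEL2 and 16162 over the 3 lines, with arm, or line by arm, as the group, Benjamini-Hochberg adjustment and a threshold of 0.05. KD2 and KD1 contrasts with NT share the NT libraries. The procedure was tested on simulated data. Alternatives were pseudocounts of 0.1 and 1, other filters, quantile normalization, median centring, no variance trend, voom on the recovered reads, a replicate block, a joint fit and leaving out libraries.

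The 33 members and the pathway and marker lists were chosen with earlier results of these data known, and a part of the lists comes from an earlier analysis of them. Every member is accounted for. Each library is given in at least 1 line for every subunit, inhibitor and member with a called change of 1 or more in log2. The same holds for members whose mean knockdown effect was called in 2 of 3 lines. Other values are mostly given as a range, an upper limit or a call. Of each pathway list at most 4 genes are named, those with the largest called effects over the 3 lines. Gene positions come from GENCODE 44, which held 99.6% of the table's gene IDs, and promoter sequences from RefSeq. Python 3.11.15, numpy 2.4.6, pandas 2.3.3 and matplotlib 3.10.9 were used.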

Additional observations from a re-analysis of the deposited data

Results flagged for a closer look

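Among 99 groups of 6 knockdown libraries, a single library stood apart from the other 5 in 2 cases. Chance flags about 1 in 20 groups whose libraries share a common level. Each group joined KD2 and KD1 libraries, so that rate does not hold where the arms differ. A stray library within an arm can then be missed. IL18 in A375 was at 0.219 FPKM in KD1 replicate 3, and CXCL10 in SKMEL2 was at 0.0579 FPKM in KD1 replicate 1. Both are genes at the edge of detection in that line.

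The mean effect of both arms differed between the 3 lines by limma's F-test in 21 of 30 members (61.1% of all genes). Among the interleukins the adjusted p was 1.5e-05 for IL1B, 1.8e-05 for IL6, 7.4e-08 for IL11, 2.1e-09 for IL24, 0.00015 for IL32 and 0.004 for LIF. For the colony-stimulating factors it was 0.00027 for CSF1 and 0.024 for CSF2. The chemokines gave 0.0096 for CXCL1, 1.3e-07 for CXCL2, 4.7e-06 for CXCL10, 2.3e-07 for CXCL16, 1.9e-07 for CCL2 and 0.016 for CCL20. The factors and inhibitors gave 0.0053 for NFKB1, 3.3e-07 for NFKBIA and 1.6e-05 for NFKBIZ. The remaining genes gave 6.5e-06 for TNFAIP2, 0.0015 for TNFRSF9, 4e-08 for ICAM1 and 9e-10 for PTGS2. Some of these were high in 1 line alone, such as IL6 in A2058 and CCL2 in A375.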

How the results depend on the processing

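With both arms as 1 group of 6 libraries, an alternative chosen after seeing the data, A2058 had 6 called members (31.7% of all genes), A375 had 2 (25.0%) and SKMEL2 had 8 (29.6%), against 24, 12 and 16. KD2 against NT in A375 gave 20 calls among 30 tested members with all 27 libraries in 1 fit, against 13 among 27. For this fit and the alternatives below, the share of all genes called is not given. Their counts therefore do not show whether members moved more than other genes. Without 1 library at a time, the mean of both arms gave 22 to 24 calls in A2058, 8 to 13 in A375 and 13 to 16 in SKMEL2. KD2 gave 18 to 24, 10 to 15 and 14 to 17 in the same order of lines, KD1 20 to 22, 16 to 22 and 15 to 19, and KD2 minus KD1 19 to 22, 20 to 24 and 17 to 20. Without the 2 shallowest A375 libraries the mean of both arms gave 8. Over the 3 lines the mean of both arms gave 24 to 27, KD2 minus KD1 24 to 26 and the difference between lines 20 to 24, while the NT comparisons gave 25 to 28 for A375 over A2058, 24 to 27 for SKMEL2 over A2058 and 25 to 26 for SKMEL2 over A375. Reversed were CCL2 over the 3 lines, -0.25 with voom against 0.22, and IL6 in NT, SKMEL2 over A375, -0.10 with quantile normalization against 0.34. The cause was not tested. Calls lost, of the single-member results, numbered 10 with a pseudocount of 0.1, 2 with 1, 12 with no filter, 13 with quantile normalization, 16 with centring and 21 with voom. Centring moved the median of all genes for KD2 minus KD1 in A2058 from -0.06 to 0.06, and the share of higher among called genes from 43.7% to 53.9%. The replicate block gave 24, 12 and 16 calls, changed 14 single-member calls and reversed none. Same-numbered libraries correlated in their deviations at -0.07 to 0.06 in A2058, -0.62 to 0.43 in A375 and -0.06 to 0.06 in SKMEL2. In A375 replicates 2 and 3 gave 0.40 and 0.43 between KD1 and NT, and -0.62 to -0.35 between KD2 and either. As not every pair correlated positively, the numbers were not taken to pair libraries, and the cause of the A375 values was not tested. Members under an FPKM of 1 rest on few reads, and the shallowest libraries are those of A375.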
